A study of Mus musculus with 12 samples.

Results

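The cells described here were fresh alveolar macrophages from Vdr knockout mice, compared between 10 and 4 weeks of age. The members are the 4 libraries whose genotype label reads VDR knockout and whose age label is 10 or 4 weeks, of 12 libraries in the series. Alveolar macrophages were taken from mice by lung lavage in a study of vitamin D signalling through its receptor (VDR) in these cells, and RNA was measured by sequencing. The groups used were 10-week knockout (2 libraries), 4-week knockout (2 libraries) and, for comparison only, wild type at 10 weeks and at 4 weeks (2 libraries each). All 4 groups were fresh cells with no treatment. The sources used here do not give the strain, the part of Vdr that was removed, whether the deletion was in all cells, or whether lavages of several mice were pooled.

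Alveolar macrophages live in the air spaces, where they take up surfactant lipid, inhaled particles and old cells, and they renew themselves by division in place. VDR is a nuclear receptor that binds DNA with the retinoid X receptor and turns on genes such as Cyp24a1, the enzyme that breaks active vitamin D down, when its ligand is present. Resident alveolar macrophages are known for low levels of the class II antigen presentation genes (MHC class II), which CIITA, a co-activator with no DNA binding of its own, switches on through the X and Y boxes of their promoters.

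The genotype labels were checked first, with Vdr itself. As CPM, the count scaled by the effective library size so that libraries can be compared, Vdr was at 84.2 in 10-week knockout replicate 1, 45.0 in 10-week knockout replicate 2, and 45.9 and 31.2 in the 4-week knockout libraries. Wild type had 79.6 and 127 CPM at 10 weeks and 56.5 and 57.7 CPM at 4 weeks. The library labelled 10-week knockout replicate 1 was thus within the wild-type range, and its description code names wild type, while the code of 10-week wild-type replicate 2 names knockout. The genotype labels were kept, and knockout below always means the libraries so labelled. Counts are also given without the library in question, called 10-week replicate 1, and from a fit with the pair in conflict exchanged, which makes both 10-week knockout libraries female. That exchange also puts the library with 127 CPM of Vdr, the highest value given here, into the knockout. Vdr RNA therefore does not settle which labels are right. Vdr did not pass the test between ages (log2 fold change 0.75 ± 0.32 SE, adjusted p = 0.164 by edgeR), and its log2 fold change was 0.22 without 10-week replicate 1 and 1.16 with the pair exchanged. Cyp24a1 had 0 to 2 counts in each of the 4 libraries.

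Total counts were 19503047 and 10409572 at 10 weeks and 16959947 and 13640751 at 4 weeks, so 1 count was worth at most 0.0904 CPM. Replicates differed by more than sampling noise, with a chi-square per degree of freedom of 20.8 at 10 weeks and 10.5 at 4 weeks. Xist, the RNA that coats an inactive X, was at 787 CPM in 10-week replicate 2 and under 1 CPM in the other 3 libraries, whereas the Y-linked Ddx3y was at 0 CPM in 10-week replicate 2 and at 94.7, 69.4 and 63.8 CPM in the others. Sex therefore differed within the 10-week pair and not within the 4-week pair, and 10-week replicate 1 alone of the 4 carried a title of the other numbering series (D14-10). Without 10-week replicate 1, a female library at 10 weeks is set against male libraries at 4 weeks. Sex and age cannot be told apart in that fit, nor in the fit with the label pair exchanged. No label says whether the 2 libraries of a group are separate mice, so the p-values rest on library-to-library spread, part of which may be technical. Genes that define alveolar macrophages were abundant in all 4: Chi3l3, a secreted chitinase-like protein, was at 20298 CPM or more, Mrc1, the mannose receptor, at 1999 CPM or more, and Pparg, the transcription factor of their differentiation, at 237 CPM or more. In bulk RNA, a change in the share of cells of one type and a change in RNA per cell cannot be told apart.

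Age went with broad differences in the knockout libraries. Of 12748 genes tested, 1240 (9.73%) passed an adjusted p of 0.05 in edgeR's quasi-likelihood test, 624 of them higher (4.89%) and 616 lower (4.83%) at 10 weeks. Among those that passed, the median size of the log2 fold change was 0.86, against 0.25 over all genes, and 526 differed by at least 2-fold (262 higher, 264 lower). The median log2 fold change of all genes was 0.01. An unadjusted p under 0.05 was reached by 3265 genes (25.6%). Leaving out 1 library at a time gave 664 genes without 10-week replicate 1, 625 without 10-week replicate 2, 481 without 4-week replicate 1 and 236 without 4-week replicate 2. In the fit of all libraries and each of these, 197 genes (1.55%) passed, 98 higher (0.769%) and 99 lower (0.777%). The fit with the 2 libraries of conflicting labels exchanged gave 821 genes, 733 of them shared with the 1240. Of the 117 named genes that passed, 83 also passed without 10-week replicate 1 and 80 with the exchange. In 7306 genes (57.3%) the CPM values of the 2 ages did not overlap, so groups that do not overlap are a description of a gene's values and are common in these libraries.

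**Figure D1:**
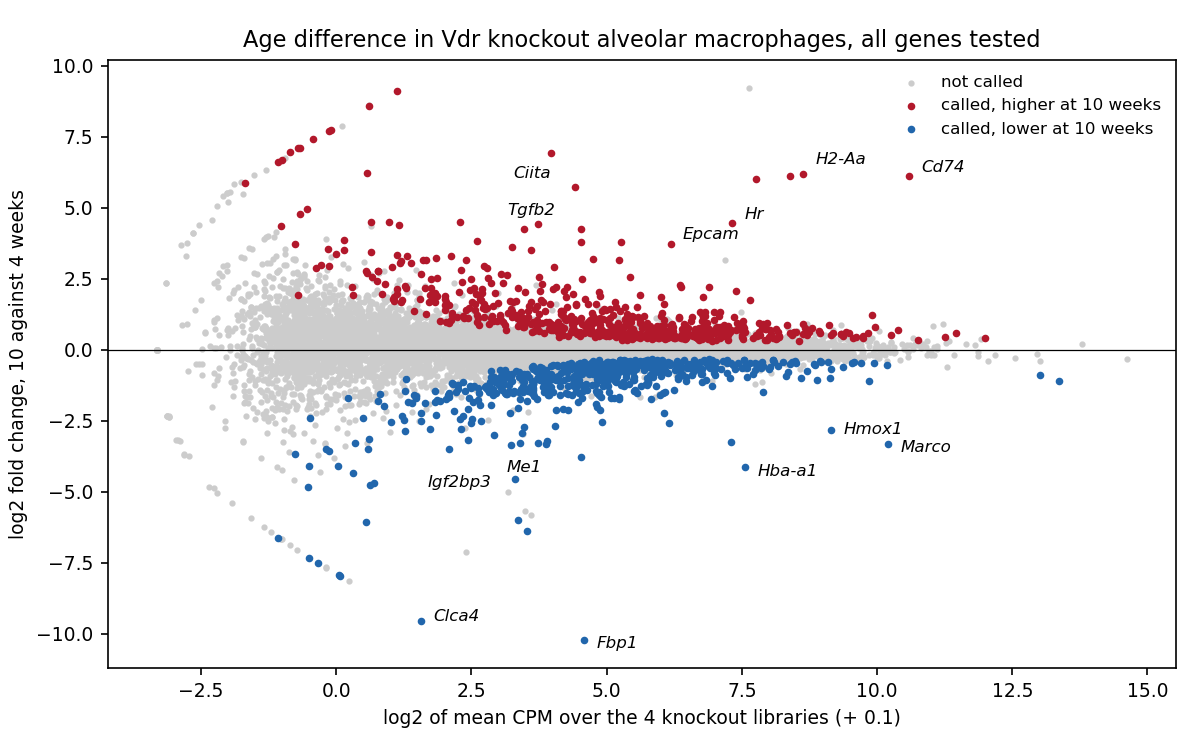
Each point is 1 of 12748 genes, with the mean level of the 4 libraries on a log axis (CPM plus an offset of 0.1) and the log2 fold change of 10 against 4 weeks in the knockout on the vertical axis. Genes past the adjusted threshold of 0.05 are coloured (624 higher, 616 lower), and some genes named in the text are labelled. Ciita, Cd74, H2-Aa, H2-Ab1 and H2-Eb1 lie near 6 on the vertical axis, and the other MHC class II genes lie lower.

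MHC class II antigen presentation genes were low at 4 weeks and high at 10 weeks in the libraries labelled knockout. Of 14 tested members of that list, 9 rose (beside 4.89% of all genes), none fell and 5 did not pass. The list median was 1.14 on the log2 scale, against 0.01 over all genes. The promoters of 2 of the genes that rose are shown before the values, because H2-Aa holds the letters of a Y box core and H2-Eb1 those of both an X and a Y box core. Whether these are sites at which CIITA acts was not tested. H2-Aa encodes the alpha chain of I-A and H2-Eb1 the beta chain of I-E. The windows are the 150 bases before the start of the gene on its own strand, from RefSeq on GRCm38.p6, chr17:34287824-34287973 (minus strand) for H2-Aa and chr17:34305717-34305866 (plus strand) for H2-Eb1. Capitals mark exact matches to the Y box core TGATTGG and, in H2-Eb1 only, upstream of it, to the X box core CTAGNAAC. Only exact letters were searched, so an X box with other letters would be missed, in H2-Aa as elsewhere.
H2-Aa: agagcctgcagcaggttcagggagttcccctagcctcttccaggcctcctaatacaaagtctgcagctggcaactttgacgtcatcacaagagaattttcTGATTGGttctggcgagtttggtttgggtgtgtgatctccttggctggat
H2-Eb1: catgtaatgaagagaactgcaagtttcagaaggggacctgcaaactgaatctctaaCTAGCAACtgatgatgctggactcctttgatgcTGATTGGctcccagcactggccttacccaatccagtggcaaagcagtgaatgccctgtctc
The Y box core lay 50 to 44 bases before the start in H2-Aa and 61 to 55 bases before it in H2-Eb1, where the X box core ended 87 bases before the start. On either strand of the 250 bases before the start, TGATTGG was found in 4 of the 6 called MHC class II genes with a RefSeq promoter (H2-Aa, H2-Eb1, H2-DMb1 and H2-DMb2), against 8.38% of 27025 genes and 11.5% of the 9456 tested genes with one. CTAGNAAC was found in 2 of the 6 (H2-Eb1 and H2-DMb1), against 3.50% of all and 3.36% of tested genes. The series was aligned to mm9, so these windows give sequence context only and were not joined to the counts by position.

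Ciita, which encodes the co-activator itself, was at 37.4 and 46.4 CPM at 10 weeks and at 0.83 and 0.701 CPM at 4 weeks. Its groups lay far apart, and it rose with a log2 fold change of 5.75 ± 0.39 (SE, adjusted p = 2.29e-05). Cd74, the invariant chain that guides class II molecules to the endosome, was at 3016 and 3025 CPM against 45.9 and 41.8 CPM. Within each age the libraries differed little, and Cd74 rose 68.8-fold (log2 6.11 ± 0.74, adjusted p = 0.00075). H2-Aa was at 761 and 810.4 CPM at 10 weeks and at 10.3 and 11.5 CPM at 4 weeks (log2 6.17 ± 0.72, adjusted p = 0.000628). H2-Ab1, the beta chain that pairs with it, was at 631 and 687 CPM against 10.2 and 8.76 CPM (log2 6.11 ± 0.64). H2-Eb1 was at 396 and 454 CPM against 5.92 and 7.36 CPM (log2 6.01 ± 0.59). In each of these genes the 2 libraries of an age were close and the ages far apart. Summed, the class II chain genes and Cd74 held 4804 and 4977 CPM at 10 weeks and 72.3 and 69.4 CPM at 4 weeks.

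The peptide-loading genes of the pathway rose less. H2-DMb1, a subunit of the DM editor that exchanges peptides in the endosome, was at 266 and 275 CPM at 10 weeks and 66.3 and 64.0 CPM at 4 weeks (log2 2.05 ± 0.14, adjusted p = 2.29e-05). H2-DMb2, a near copy of it whose reads may be shared between them, had a log2 fold change of 1.35 (adjusted p = 0.00282). H2-DMa, the other subunit, was at 339 and 311 CPM against 166 and 176 CPM, a 1.90-fold rise. Ctss, which encodes the protease that trims the invariant chain, rose by a log2 of 0.59 (adjusted p = 0.0173), and was the only one of the 9 that did not pass in every fit without 1 library. It did not pass with the label pair exchanged either. The number of class II genes that rose was 9 without 10-week replicate 1, 9 without 10-week replicate 2, 8 without either 4-week library and 8 with the label pair exchanged.

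**Figure D2:**
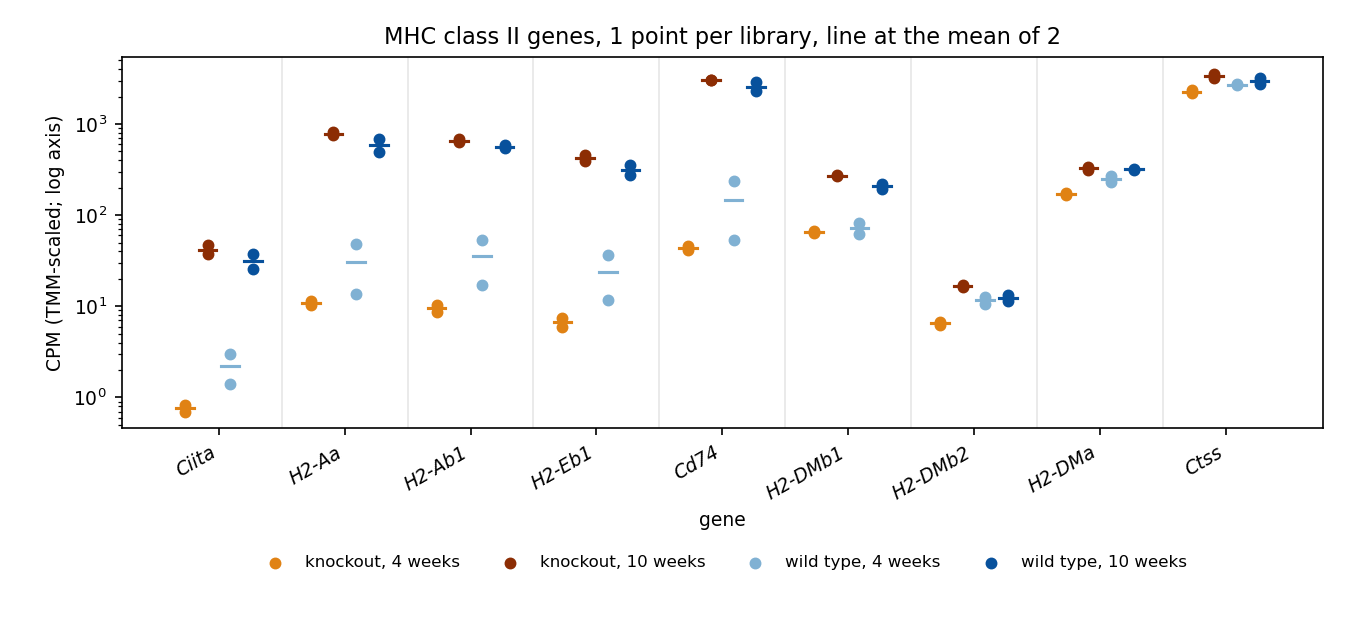
Points are single libraries, with CPM on a log axis for MHC class II genes in knockout and wild type at 4 and 10 weeks. In both knockout libraries at 10 weeks Cd74 is near 3020 CPM (3016 and 3025), and at 4 weeks it is at 45.9 and 41.8 CPM; the 10-week points lie above the 4-week points of the same genotype for Ciita, Cd74, H2-Aa, H2-Ab1 and H2-Eb1.

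Dendritic cells and B cells carry class II constitutively, so their markers stand beside these values. Of 14 tested dendritic cell markers 2 rose, beside 4.89% of all genes. The 2 were Clec9a, a receptor for dead-cell actin (6.0 and 6.6 CPM against 0.498 and 0.841 CPM), and Sirpb1a (log2 0.59), which did not pass with the label pair exchanged. Without Clec9a the summed level of the list was 163 and 153 CPM at 10 weeks and 113 and 125 CPM at 4 weeks. The B cell list summed to 0.634 and 0.904 CPM at 10 weeks and to 2.10 and 3.64 CPM at 4 weeks. The part of these cells in the class II difference was not tested.

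The other genes with the largest rises had no single function. Hr encodes hairless, a nuclear corepressor that binds VDR, and was at 374 and 236 CPM at 10 weeks against 15.2 and 12.7 CPM at 4 weeks (log2 4.45 ± 0.62, adjusted p = 0.00185). Itgad, the integrin alpha D chain of macrophages, was at 84.1 and 59.0 CPM against 5.37 and 4.97 CPM (log2 3.79, adjusted p = 2.3e-05). Clec1b, the C-type lectin CLEC-2, was at 28.7 and 22 CPM against 1.33 and 0.981 CPM (log2 4.44). In each of these 3 genes both 10-week libraries were above both 4-week libraries by a wide gap. The rule that named them required groups apart, and 57.3% of all genes had no overlap. Pdpn, podoplanin, which CLEC-2 binds, also rose, from 4.43 and 2.94 CPM to 17.1 and 16.4 CPM (log2 2.17). Epcam, an epithelial adhesion molecule, was at 157 and 113 CPM at 10 weeks and 10.7 and 9.53 CPM at 4 weeks (log2 3.74, adjusted p = 0.000258). Tgfb2, a TGF-beta ligand, was at 16.1 and 25.9 CPM against 1.27 and 0.911 CPM (log2 4.24 ± 0.50, adjusted p = 0.000662).

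Genes of cell division were lower at 10 weeks. Of 41 tested members of the cell cycle list 36 fell, none rose and 5 did not pass (Mki67, Top2a, Cdc6, Cenpf and E2f1), and all 41 had a log2 fold change below 0. The list median was -1.15, against 0.01 over all genes, of which 4.83% fell. Summed, the list was at 1596 and 1223 CPM at 10 weeks and at 2817 and 3094 CPM at 4 weeks. Cdt1, which licenses replication origins, was at 33.7 and 32.8 CPM at 10 weeks and 70.9 and 80.6 CPM at 4 weeks, and fell by 1.19 ± 0.10 on the log2 scale (adjusted p = 8.72e-05). Ccnb1, cyclin B1, which drives entry into mitosis, was at 19.5 and 14.7 CPM against 42.8 and 54.4 CPM (log2 -1.49 ± 0.20, adjusted p = 0.00152). Cdc20, the activator of the anaphase-promoting complex, was at 13.2 and 13.6 CPM against 35.0 and 36.8 CPM (log2 -1.42, adjusted p = 0.00169). In these 3 genes each 4-week library was well above each 10-week library, an order without overlap that 57.3% of all genes had in one direction or the other.

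Plk1, a mitotic kinase, was at 15.2 and 14.8 CPM at 10 weeks and 38.0 and 47.1 CPM at 4 weeks (log2 -1.5, adjusted p = 0.00385). Mki67, the proliferation antigen Ki-67, was at 153 and 104 CPM against 291 and 305 CPM, with a log2 fold change of -1.21 and an adjusted p of 0.0529. It missed the threshold although its groups did not overlap. Genes of the S phase, such as Pcna, the sliding clamp (log2 -0.63), and Rrm2, a ribonucleotide reductase subunit (log2 -1.53), were among the 36. The count depended on the libraries: 26 fell without 10-week replicate 1, 12 without 10-week replicate 2, 21 without 4-week replicate 1 and 7 without 4-week replicate 2, and 31 fell with the label pair exchanged. The members that fell in each of these leave-one-out fits were Cdt1, Ccnb1, Cdc20, Kif20a, Cenpa, Birc5 and Aurkb.

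Cell cycle promoters often carry CCAAT boxes, bound by NF-Y, and a cell cycle homology region with the core TTTGAA. Ccnb2, cyclin B2, fell from 43.9 and 52.4 CPM to 24.3 and 20.5 CPM (log2 -1.10, adjusted p = 0.00974 by edgeR). Its promoter is shown with that of Cdc20 because both hold CCAAT close to the start. Cdc20 holds TTTGAA in its window as well, whereas Ccnb2 holds TTTGAA only outside its window, within 250 bases before the start. The windows are 120 bases before the start of Ccnb2, chr9:70421555-70421674, and bases 120 to 11 before the start of Cdc20, chr4:118437354-118437463, both on the minus strand of GRCm38.p6 from RefSeq. Capitals mark CCAAT and TTTGAA.
Ccnb2: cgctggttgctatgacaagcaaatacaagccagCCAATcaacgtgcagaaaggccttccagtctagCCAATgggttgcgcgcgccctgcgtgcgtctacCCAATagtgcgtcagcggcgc
Cdc20: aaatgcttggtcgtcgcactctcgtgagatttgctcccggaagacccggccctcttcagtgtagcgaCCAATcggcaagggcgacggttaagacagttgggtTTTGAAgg
Within 250 bases before the start, on either strand, CCAAT was found in 23 of the 29 called cell cycle genes with a promoter (79.3%), against 37.5% of all genes and 40.7% of tested genes. TTTGAA was found in 7 of the 29 (24.1%), against 18.3% and 12.8%. The Y box core TGATTGG holds CCAAT on its other strand, so these motifs overlap. A match is a description of the letters and was not tested as a binding site.

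**Figure D3:**
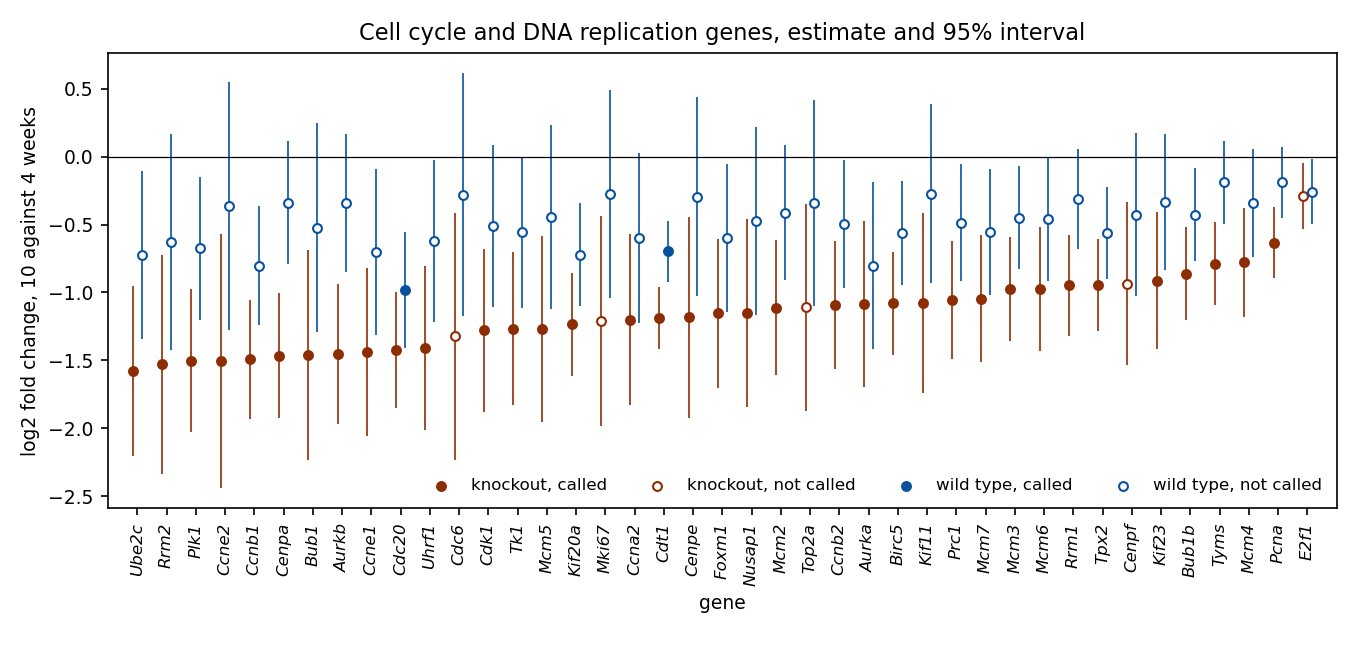
Log2 fold change of 10 against 4 weeks for cell cycle genes, with knockout and wild type side by side bars of the 95% confidence interval, and filled points for genes past the threshold. All 41 values lie below 0 in the knockout, with a median of -1.15, and all 41 lie below 0 in wild type, with a median of -0.47.

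Part of the antioxidant and iron genes was lower at 10 weeks, among them those of haem breakdown, ferritin and glutathione supply. NRF2 (Nfe2l2) is the transcription factor that turns on glutathione, NADPH and haem breakdown genes under oxidative stress, through antioxidant response elements. Of 32 tested members of its list 12 fell (beside 4.83% of all genes), 1 rose and 19 did not pass. The median was -0.62, with 28 values below 0. Nfe2l2 itself (log2 0.13, adjusted p = 0.59) and Keap1, its inhibitor (log2 -0.12, adjusted p = 0.55), did not pass. Leaving out 1 library gave 8, 10, 7 and 6 genes lower, without 10-week replicate 1, 10-week replicate 2, 4-week replicate 1 and 4-week replicate 2 in turn, and 12 fell with the label pair exchanged.

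The promoters of Gclm, the regulatory subunit of the enzyme that starts glutathione synthesis, and Prdx1, a peroxiredoxin, are shown since both genes fell and hold the core of the antioxidant response element, TGACNNNGC, on the minus strand of the gene. The windows are 60 bases long and begin 160 bases before the start, chr3:122245397-122245456 for Gclm and chr4:116685439-116685498 for Prdx1, both plus strand of GRCm38.p6 from RefSeq, and capitals mark the match as read on the gene's strand.
Gclm: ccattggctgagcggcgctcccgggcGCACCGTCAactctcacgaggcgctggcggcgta
Prdx1: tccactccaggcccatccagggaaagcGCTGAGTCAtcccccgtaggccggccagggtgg
The core was found in 3 of the 11 called NRF2 genes with a promoter (Gclm, Prdx1 and G6pdx, 27.3%) in the 250 bases before the start, against 11.5% of all genes and 14.2% of tested genes. With 50 bases after the start included, 5 of the 11 held it (45.5%), against 14.0% and 17.4%.

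Hmox1, haem oxygenase 1, which opens the haem ring and frees its iron, was at 128 and 154 CPM at 10 weeks and at 985 and 991 CPM at 4 weeks. It fell 7.02-fold (log2 -2.81 ± 0.19, adjusted p = 2.29e-05), with a wide gap between the ages. Me1, malic enzyme, a source of NADPH, was at 1.66 and 1.63 CPM against 17.8 and 16.0 CPM (log2 -3.35 ± 0.35, adjusted p = 0.000295). Slc7a11, the cystine importer, was at 16.7 and 31.2 CPM against 107 and 112 CPM (log2 -2.22, adjusted p = 0.00561). Gclm was at 40.6 and 41.2 CPM against 106 and 113 CPM (log2 -1.42, adjusted p = 0.0176), and Prdx1 at 612 and 567 CPM against 1220.2 and 1299 CPM (log2 -1.10, adjusted p = 0.00699). In each of these 5 genes both 10-week libraries were below both 4-week libraries, while 57.3% of all genes had no overlap in one direction or the other. Gsr, glutathione reductase, Pgd and G6pdx, enzymes of the pentose phosphate pathway, Gstm1, a glutathione transferase, and Osgin1 also fell, by 0.75, 0.67, 0.57, 0.78 and 1.57 on the log2 scale. Ephx1, epoxide hydrolase, was the member that rose (8.97 and 15.1 CPM against 2.66 and 1.96 CPM, log2 2.35, adjusted p = 0.0062). Nqo1 (log2 -1.15, adjusted p = 0.31) and Gclc (log2 -0.31, adjusted p = 0.123), known NRF2 targets, did not pass.

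The ferritin and ferroportin genes fell, as Hmox1 did. Over all genes 4.83% fell and 4.89% rose. Of 22 tested iron and haem genes 8 fell and 2 rose, with a median of -0.15, and 12 did not pass (6 fell and 1 rose without 10-week replicate 1). Ftl1 and Fth1, the ferritin chains, were among the most abundant: Ftl1 was at 6604 and 6959 CPM at 10 weeks and at 14298 and 14559.9 CPM at 4 weeks (log2 -1.09, adjusted p = 0.000173), and Fth1 at 5473 and 6098 CPM against 10710.1 and 10770.4 CPM (log2 -0.89, adjusted p = 0.0014). Slc40a1, ferroportin, the iron exporter, was at 9.41 and 12.7 CPM against 43.3 and 51.2 CPM (log2 -2.11, adjusted p = 0.00137). For these 3 genes each 10-week library was below each 4-week library, and 57.3% of all genes had no overlap in one direction or the other. Slc11a1 (log2 -1.82) and Slc11a2 (log2 -0.64), divalent metal transporters, Steap3, a ferrireductase (log2 -1.37), and Slc48a1, a haem transporter (log2 -0.49), fell as well. Alas1, the first enzyme of haem synthesis (log2 0.73), and Trf, transferrin (log2 0.36), rose. Near these genes by role, Abcb6, a porphyrin transporter, fell from 33.2 and 38.5 CPM to 11 and 10.8 CPM (log2 -1.72), and Aldh2, the mitochondrial aldehyde dehydrogenase, from 348 and 351 CPM to 119.8 and 131 CPM (log2 -1.48).

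Red cell transcripts were also lower at 10 weeks in the knockout. Of 10 tested erythroid markers 3 fell, beside 4.83% of all genes. The 3 were Hba-a1, an alpha globin (27.1 and 12.6 CPM against 228 and 489 CPM, log2 -4.14, adjusted p = 0.00114), Hbb-b1, a beta globin (log2 -3.78), and Alas2, the erythroid enzyme of haem synthesis (log2 -2.44). The list summed to 86.3 and 95.9 CPM at 10 weeks and to 389 and 687 CPM at 4 weeks. In wild type Hba-a1 was higher still at 4 weeks, 2315 and 885 CPM against 36.3 and 40.5 CPM at 10 weeks, whereas Hmox1 was at 231 and 152 CPM at 4 weeks and 200.5 and 198 CPM at 10 weeks. Hbb-b1 did not pass with the label pair exchanged (log2 -2.82). The part of red cells in the iron gene difference was not tested.

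**Figure D4:**
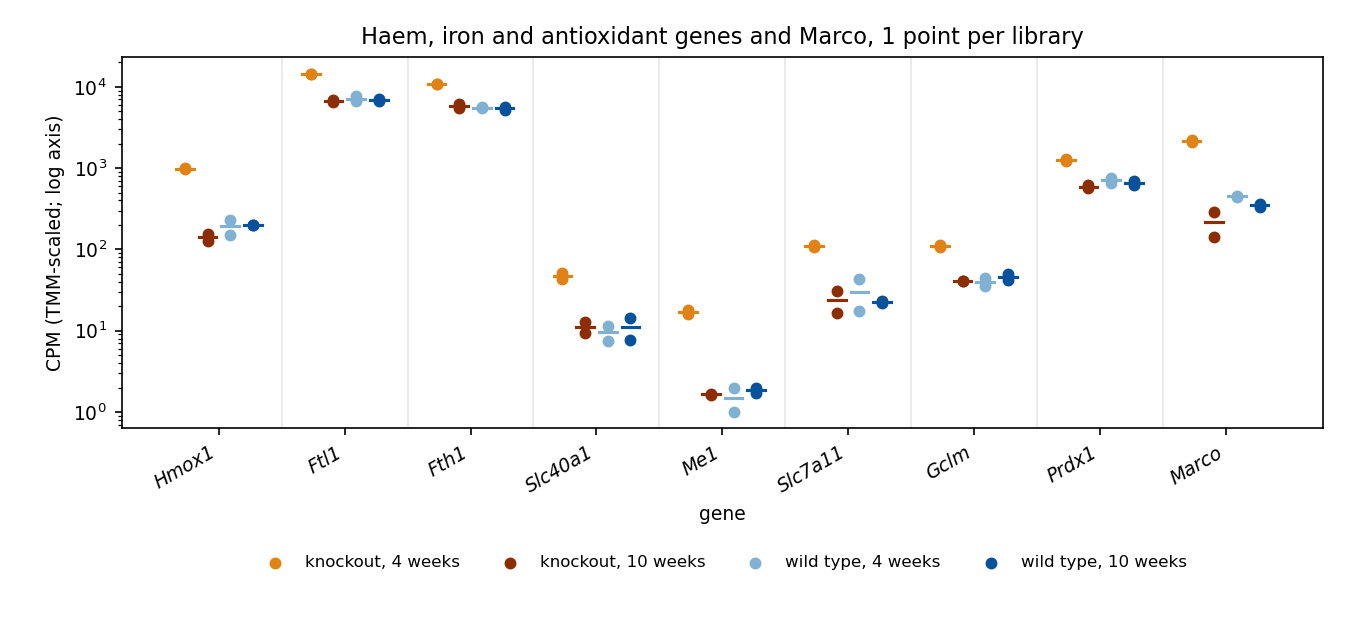
Points are single libraries, with CPM on a log axis for haem, iron and antioxidant genes and Marco in knockout and wild type at 4 and 10 weeks. Hmox1 is at 985 and 991 CPM in the 4-week knockout libraries and between 128 and 231 CPM in the other 6 libraries.

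Of 34 tested alveolar macrophage identity genes 3 rose and 6 fell, with a median of -0.16, so most did not pass (1 and 6 without 10-week replicate 1). Over all genes 4.89% rose and 4.83% fell. Marco, a scavenger receptor for particles and bacteria, was at 291 and 142 CPM at 10 weeks and at 2195 and 2086 CPM at 4 weeks, and fell 9.89-fold (log2 -3.31 ± 0.33, adjusted p = 0.000196). The 4-week libraries were close together and far above both 10-week libraries. Car4, a carbonic anhydrase of these cells, was at 259.6 and 352 CPM against 639 and 639.5 CPM (log2 -1.07). Ear5 (log2 -2.94) and Ear6 (log2 -2.13), eosinophil-associated ribonucleases of a family whose near-identical copies can share reads, fell too. Bhlhe41, a transcriptional repressor (log2 -0.85), and Serpinb1a, an elastase inhibitor (log2 -0.56), also fell. Itgax, the integrin CD11c (log2 0.68), Siglec5, an older symbol of mouse Siglec-F (log2 0.77), and Bhlhe40, the paralogue of Bhlhe41 (log2 0.72), rose. Itgax and Siglec5 did not pass without 10-week replicate 1, and Bhlhe41 did not pass with the label pair exchanged.

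Of 23 tested scavenger and phagocytic receptor genes 4 fell (beside 4.83% of all genes), none rose and 19 did not pass. Those that fell were Marco, Msr1, scavenger receptor A (10.4 and 11.7 CPM against 38.2 and 51.8 CPM, log2 -2.03, adjusted p = 0.000445), Cd36, a receptor for oxidised lipid and fatty acid (248 and 262 CPM against 466 and 560.1 CPM, log2 -1.01, adjusted p = 0.00113), and Clec4d, a C-type lectin (11.8 and 17.0 CPM against 31.8 and 35.6 CPM, log2 -1.25). The list median was 0.04, with 13 values above 0 and 10 below. All 4 passed without 10-week replicate 1. Of 25 tested fatty acid genes 4 fell and 1 rose, with a median of -0.11, and the same counts were found without 10-week replicate 1. Ppap2b, a lipid phosphate phosphatase, was at 2.44 and 2.98 CPM against 25.6 and 27.6 CPM (log2 -3.32 ± 0.19, adjusted p = 1.83e-05), and Angptl4, an inhibitor of lipoprotein lipase, at 98.5 and 81.2 CPM against 173 and 159 CPM (log2 -0.88). Cd36 and Cpt2, the inner carnitine transferase (log2 -0.64), were the other members that fell, and Dgat2, an enzyme of triglyceride synthesis (log2 0.71), rose. Beside these lipid lists, 4.83% of all genes fell and 4.89% rose. None of 15 LXR target genes and none of 19 unfolded protein response genes passed. Of 30 cholesterol and lipid synthesis genes 3 fell (Dhcr7, Fasn and Scd2, log2 -0.53, -0.43 and -0.64). None of these 3 passed without 10-week replicate 1, and Cd36, Angptl4, Dgat2, Dhcr7 and Scd2 did not pass with the label pair exchanged.

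Secreted and sensing genes moved in both directions. Of 28 tested cytokine and growth factor genes 2 rose and 4 fell, beside 4.89% and 4.83% of all genes, with a median of -0.20. Pdgfc, a platelet-derived growth factor, rose from 20.4 and 21.9 CPM to 66.7 and 52.2 CPM (log2 1.5, adjusted p = 0.000118), and Vegfa, the vascular growth factor, from 1.77 and 1.61 CPM to 7.46 and 4.88 CPM (log2 1.88, adjusted p = 0.00818). Cxcl3 (log2 -2.80) and Ccl3 (log2 -1.15), chemokines, Igf1, a growth factor (log2 -1.74), and Tnf (log2 -0.97) fell. Without 10-week replicate 1, only Pdgfc and Cxcl3 of these 6 passed, and with the label pair exchanged Vegfa, Cxcl3, Igf1 and Tnf did not. Of 25 Toll-like receptor pathway genes 2 rose, beside 4.89% of all genes that rose, and the count is too small to set the list apart: Cd14, the lipopolysaccharide co-receptor (126 and 97.3 CPM against 49.1 and 51.6 CPM, log2 1.15, adjusted p = 0.00412), and Tlr8 (log2 1.01). Of 14 tested genes of secreted antimicrobial proteins 1 rose and 3 fell. Slpi, a secreted inhibitor of neutrophil proteases, was at 167 and 177 CPM against 43.4 and 51.3 CPM (log2 1.86 ± 0.14, adjusted p = 5.06e-05). Those that fell were Ltf, lactoferrin (log2 -2.69), S100a9, a calprotectin chain, given below by its counts, and Pglyrp1, a peptidoglycan recognition protein (log2 -3.51). Pglyrp1 passed neither without 10-week replicate 1 nor with the exchange. Of 29 interferon-stimulated genes only Ifi47, an interferon-induced GTPase, passed (log2 1.36), and it passed neither without 10-week replicate 1 nor with the exchange.

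In the TGF-beta list 5 of 21 tested genes rose (beside 4.89% of all genes) and none fell, with a median of 0.25. Among those that rose were Tgfb2, Skil, a co-repressor of the pathway (log2 0.72), Id2, an inhibitor of helix-loop-helix factors (log2 0.62), and Tgfbr1, a receptor chain (log2 0.61). Of 25 tested metalloproteinase and adhesion genes 3 rose and none fell, with a median of -0.01. Itgax was among them, given above. Timp2, an inhibitor of matrix proteases, was at 116 and 155 CPM against 22.4 and 36.3 CPM (log2 2.21), and Itga4, the alpha chain of the VLA-4 integrin, at 207 and 183 CPM against 79.9 and 73.7 CPM (log2 1.34). Skil and Tgfbr1 did not pass without 10-week replicate 1, nor Id2 and Tgfbr1 with the label pair exchanged.

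Genes that respond to VDR ligand in other cells showed no common direction. Of 14 tested members of that list 2 rose (Cd14 and Srgn, a proteoglycan of secretory granules, log2 1.18) and 2 fell (Fbp1, a gluconeogenic enzyme, and Thbd, thrombomodulin, log2 -0.90), with a median of -0.002. The shares over all genes were 4.89% higher and 4.83% lower. Fbp1 had 1 count at 10 weeks in all and 1360 at 4 weeks, most of them in replicate 2 (92.8 CPM against 1.99 CPM in replicate 1), so its fall rests mainly on that library. Of 13 tested genes of vitamin D metabolism and VDR partners, Ncoa1, a nuclear receptor co-activator, rose (log2 0.79). That was 1 gene, too few to set the list apart. Fbp1, Thbd, Srgn and Ncoa1 did not pass without 10-week replicate 1, and Fbp1, Thbd and Srgn did not pass with the label pair exchanged, which left 1 gene of the first list higher and none lower.

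Markers of other cells were present at levels that differed between lists. Of 21 tested lung epithelial markers 4 rose (Epcam and Pdpn, above, Ager, a receptor of alveolar type 1 cells, at 9.70 and 10.8 CPM against 2.71 and 2.38 CPM, and Nkx2-1, a lung transcription factor, log2 2.32) and Scgb3a1, an airway secretoglobin, fell (log2 -3.22). Over all genes 4.89% rose and 4.83% fell. The epithelial list had a median log2 fold change of 1.11, with 16 values above 0 and 5 below, and of -0.07 in wild type. Without 10-week replicate 1 the knockout median was 0.48. Summed, the epithelial list was at 696 and 529 CPM at 10 weeks and at 319 and 578 CPM at 4 weeks, with overlap. The surfactant genes summed to 70.9 and 26.3 CPM against 21.1 and 20.3 CPM. Scgb1a1, the club cell secretoglobin, was at 171 and 145 CPM against 22.9 and 185 CPM. None of 11 monocyte and interstitial macrophage markers passed (523 and 595 CPM summed at 10 weeks, 448 and 455 CPM at 4 weeks). Of 12 tested T cell markers Cd2 rose (log2 0.73), while 10 of the 16 on the list were under 1 CPM in all 4 libraries. Among 6 tested neutrophil markers Csf3r rose (log2 0.75) and Ltf (log2 -2.69) and S100a9 fell, the last with 3 counts at 10 weeks against 88 at 4 weeks. Scgb3a1, Csf3r and S100a9 did not pass without 10-week replicate 1, and Scgb3a1, Ager and Csf3r did not pass with the label pair exchanged.

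Wild-type cells differed between the same ages at fewer genes. In wild type 269 genes passed (2.11%), 179 higher (1.4%) and 90 lower (0.706%), and 178 of them were among the knockout's 1240, which is 66.2% of the wild-type and 14.4% of the knockout genes. Of the 178, 176 had the same direction, and 1134 of the 1240 (91.5%) had the same sign in wild type, against 68.8% of all genes. The 2 comparisons share no library, but they share the estimate of spread and the same mix of sex and title series. As in the knockout, 10-week wild-type replicate 2 was female (Xist at 800 CPM), and 10-week wild-type replicate 1 had a title of the D14-10 series. Both 4-week wild-type libraries were male and of the other title series. The part of sex and title series in this agreement was not tested. Across genes the log2 fold changes had a Pearson correlation of 0.41 and a Spearman correlation of 0.45 over 12748 genes, which are not independent replicates. Whether an age difference itself differed between genotypes was tested with the interaction term, and 24 genes (0.188%) passed, 8 with a higher (0.0628%) and 16 with a lower (0.126%) log2 fold change in the knockout. An unadjusted p under 0.05 was reached by 2367 genes in wild type (18.6%) and by 1103 genes in the interaction (8.65%). Of the 24, 23 also passed in the knockout between ages and 3 in wild type.

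MHC class II rose in wild type as well, with 6 of 14 tested members called higher, beside 1.4% of all genes. The list median in wild type was 1.09, and no member passed the interaction. Cd74 was at 2859.9 and 2281 CPM at 10 weeks and at 238 and 53.3 CPM at 4 weeks in wild type. The interaction of Ciita was 1.86 (95% interval 0.69 to 3.02, adjusted p = 0.342) and that of H2-Aa 1.90 (0.05 to 3.76, adjusted p = 0.573). Both intervals run from a small to a several-fold difference between genotypes. In the cell cycle list 2 genes fell in wild type (Cdt1 and Cdc20), beside 0.706% of all genes. The list median in wild type was -0.47, and no member passed the interaction. That of Cdt1 was -0.49 (95% interval -0.81 to -0.17, adjusted p = 0.356). Igf2bp3, an RNA-binding protein of fetal cells, fell in both genotypes (log2 -4.54 in knockout, -3.73 in wild type), and Hr (3.60) and Itgad (2.56) rose in wild type too.

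Hmox1 was at a log2 fold change of -2.81 in the knockout and 0.06 in wild type, with an interaction of -2.87 (95% interval -3.42 to -2.31, adjusted p = 0.000706). Ppap2b had an interaction of -3.02 (-3.61 to -2.42, adjusted p = 0.000706), Aldh2 of -1.61 (adjusted p = 0.00103) and Abcb6 of -1.89 (adjusted p = 0.00103). Me1 (-3.70, adjusted p = 0.02), Ftl1 (-1.02, adjusted p = 0.0203) and Slc40a1 (-2.33, adjusted p = 0.0495) differed in the same direction. Marco had an interaction of -2.94 (95% interval -3.88 to -1.99, adjusted p = 0.0206), with wild type at 365 and 330.1 CPM at 10 weeks and 443 and 455 CPM at 4 weeks. For Hmox1, Ftl1, Marco and Ppap2b, the 4-week knockout libraries stood above the other 6 fresh libraries. Pdgfc (1.40, adjusted p = 0.0184) and Tppp3, a tubulin polymerisation protein (1.49, adjusted p = 0.0363), rose more in the knockout, and Tgfb2 (3.23, 95% interval 1.77 to 4.70, adjusted p = 0.127) did not pass. Ager had an interaction of 2.82 (adjusted p = 0.0236), and its rise in the knockout did not pass with the pair exchanged (log2 1.35, adjusted p = 0.329). Hmox1, Aldh2 and Abcb6 passed the interaction under every alternative run, and Ppap2b under all but the exchange of the label pair (-1.86, adjusted p = 0.478). Marco (adjusted p = 0.108), Pdgfc (0.249) and Slc40a1 (0.107) did not pass with the exchange either. Without 10-week replicate 1 the interactions of Me1, Ftl1, Slc40a1, Tppp3 and Ager did not pass.

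**Figure D5:**
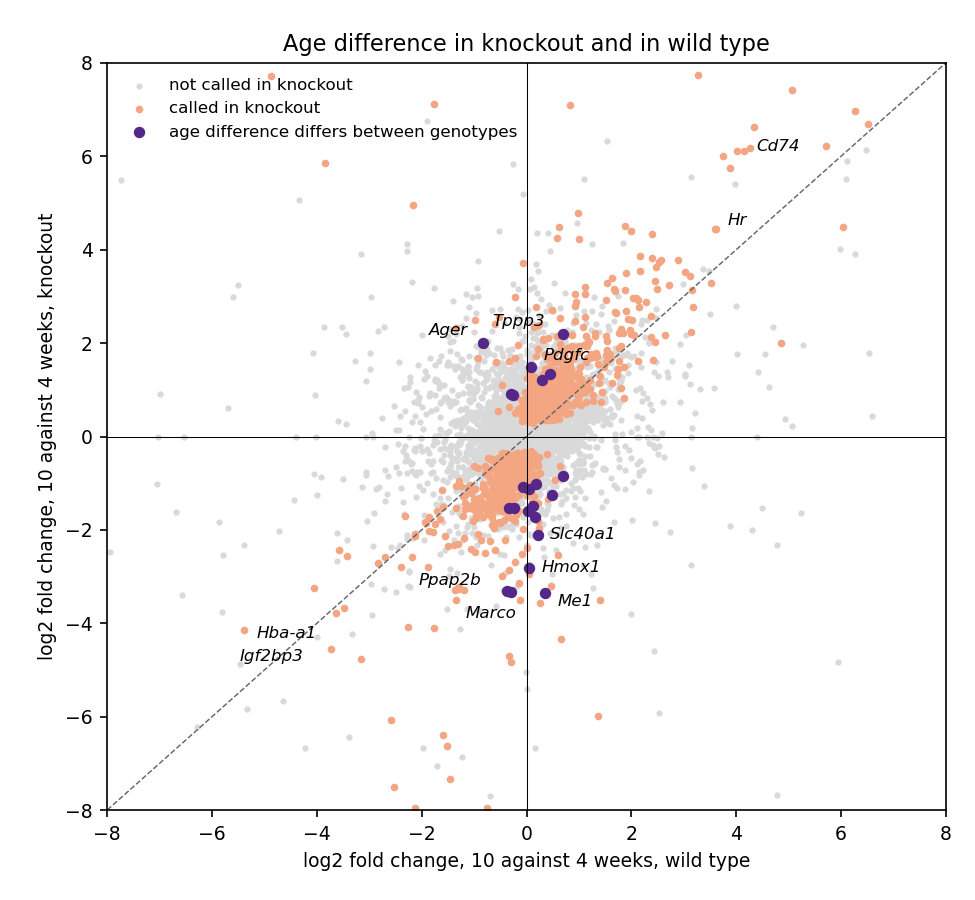
Log2 fold change of 10 against 4 weeks in wild type (horizontal) and in knockout (vertical), 1 point per gene, both axes limited to 8 either way, with 13 of 12748 genes outside. Genes past the interaction threshold are purple (2 of the 24, Amd1 and Gm17757, lie outside) and other genes called in the knockout are orange. Hmox1, Ppap2b, Me1 and Marco lie far below the diagonal, near 0 in wild type, while Cd74 lies in the upper right, high in both genotypes.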

How the data were processed

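Per the labels' protocols, the RNeasy Micro kit (Qiagen) was used for RNA and the mRNA HyperPrep kit (KAPA) for sequencing libraries. The authors deposited raw counts per gene (23413 genes) and log2 values of 10631 genes, which are log2(CPM + 1). TopHat2, edgeR and mm9 were used, per the submitters' processing notes; their versions, the counter, its strandedness and the gene models were not given in the sources used here. Overlapping and antisense genes therefore cannot be told apart. Genes were kept with filterByExpr (minimum count 10, minimum total 15), which left 12748. The deposited counts of all 12 libraries entered 1 quasi-likelihood fit with TMM scaling (edgeR 4.0.16, R 4.3.3, 6 residual degrees of freedom), with Benjamini-Hochberg adjustment over all genes tested and a threshold of 0.05. Intervals are 95%. Alternatives used DESeq2 1.42.0, its size factors, other filters, covariates, a replicate block, left-out libraries, limma 3.58.1 on the deposited log2 values and exchange of the pair of conflicting labels. The code was tested on simulated data.

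The members and gene lists were chosen with earlier results of these data known. Genes were named by a rule: the label checks, up to 15 per direction by fold change with groups apart and at least 5 CPM, up to 10 by p among those that passed without each library, up to 6 per list and 6 per direction of the interaction, and the 3 most abundant markers per cell type, leaving out predicted genes. Members of small counts are named in full. Other genes, among them Mki67, Ccnb2, Clec9a, Pdpn, Gclm, Prdx1, Nqo1, Gclc, Keap1, Nfe2l2, Rrm2, Pcna, Tgfb2's list and several iron genes, and every motif but TGACNNNGC were chosen after values were seen. Motifs were searched in RefSeq promoters of GRCm38.p6. A member of the TGF-beta list is not reported here.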

Additional observations from a re-analysis of the deposited data

Results flagged for a closer look

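For 24 genes the difference between 10 and 4 weeks itself differed between the libraries labelled knockout and wild type, by the genotype by age interaction of edgeR at an adjusted p of 0.05. Each value is the knockout age difference minus the wild-type age difference on the log2 scale, and 0.188% of all genes tested passed. With the pair of conflicting labels exchanged, 7 of the 24 passed: Hmox1, Aldh2, Abcb6, Me1, Ftl1, Tppp3 and Amd1. The lower ones were Me1 (-3.70), Ppap2b (-3.02), Marco (-2.94), Hmox1 (-2.87), Slc40a1 (-2.33), Abcb6 (-1.89), Clec4d (-1.75), Myo5a (-1.64), Aldh2 (-1.61), Fads1 (-1.54), Ptgr1 (-1.31), Osbpl3 (-1.20), Creg1 (-1.19), Lrp8 (-1.19) and Ftl1 (-1.02). The higher ones were Ager (2.82), Tppp3 (1.49), Pdgfc (1.40), Lair1 (1.20), Gpcpd1 (1.15), Adam22 (0.92) and Gpr155 (0.90).

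The other two were Amd1 (-9.75) and Gm17757 (17.47), and both are uncertain. Amd1 has a near-identical copy, Amd2, with which reads can be shared: Amd1 was at 0.0699 and 0.0966 CPM in 4-week wild type, where Amd2 was at 97.7 and 114 CPM. Gm17757 is a predicted gene with 0 CPM in both 10-week wild-type libraries, so the size of its fitted value depends on the prior count.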

How the results depend on the processing

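The number of genes that differed between ages in the knockout was 1240, and 2059 with no low-count filter and 821 with the label pair exchanged. With sex as a covariate it was 980, of which 844 were among the 1240. Leaving out 1 library gave 236 (without 4-week replicate 2) to 664 (without 10-week replicate 1) genes, with 625 without 10-week replicate 2 and 481 without 4-week replicate 1. In wild type the 269 genes became 677 by DESeq2, 1223 with no filter and 58 to 150 without 1 library (10-week replicate 1 and 10-week replicate 2), with 63 and 68 without the 4-week libraries. The 24 interaction genes became 89 by DESeq2, 392 with no filter, 53 when the fit held the compared groups alone, 40 with the title series as a covariate, 12 with the exchange (7 of them among the 24), and 5 (without 4-week replicate 2) to 14 (without 10-week replicate 2) when 1 library was left out, each of the 8 fresh libraries moving the count by over 1.5 times. With sex as a covariate, 326 genes passed in wild type and 18 in the interaction. With no filter, genes of very few counts entered. The cause of the other changes was not tested.

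The replicate number as a block gave 1390 genes in the knockout, 409 in wild type and 20 for the interaction. Same-numbered libraries did not deviate together in the knockout (correlation 0.0391 over 12748 genes), so the numbers were not taken as pairs. Of the 117 named genes that passed, 115 kept their call with the block.

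Of these 117 genes, 106 passed with sex as a covariate, 108 with the title series, 115 by DESeq2 and 97 of the 97 present by limma on the deposited log2 values. Without 1 library, 83 passed without 10-week replicate 1, 88 without 10-week replicate 2, 78 without 4-week replicate 1 and 67 without 4-week replicate 2. Scd2 alone of the 117 changed sign, to 0.13 with the exchange. Among the named genes that had not passed, the log2 fold change turned sign for Cyp24a1 (0.013 with sex as a covariate, -3.69 to 0.17 without 1 library), Ddx3y (0.46 with sex, -13.06 to 0.51), Slc25a37 (-0.0831 with the title series, -0.056 to 0.11), Scgb1a1 (-0.25 with the exchange, -0.23 to 2.79), Il7r (0.93 with the exchange), Klrb1c (-0.48 with sex, -3.21 to 4.26), Ccl22 (-0.19 to 0.24), Mmp8 (-0.028 with the title series, -0.29 to 0.63), Cxcr2 (-0.067 with sex, -0.21 to 0.55), Kit (0.12 with the title series, 1.65 with the exchange, -0.93 to 1.15) and Amd1 (-0.46 to 0.028). The causes were not tested. With 2 libraries a side, the smallest two-sided p of a rank test is 0.333, and age, sex and title series are partly mixed at 10 weeks.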

Other observations

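Genes of the body clock differed between ages in both genotypes. In wild type 1 of 15 tested members rose and 3 fell, beside 1.4% and 0.706% of all genes, and none passed the interaction. In the libraries labelled knockout 3 of the 15 rose (Bhlhe40, Nfil3 and Cry1, log2 0.72, 0.83 and 0.70) and 4 fell, beside 4.89% and 4.83% of all genes. Nr1d2, a REV-ERB repressor of the clock, was at 12.6 and 15.9 CPM at 10 weeks and at 46.0 and 43.9 CPM at 4 weeks (log2 -1.67, adjusted p = 0.000491 by edgeR). Nr1d1, the other REV-ERB gene, was at 7.51 and 12.4 CPM against 27.8 and 28.3 CPM (log2 -1.52, adjusted p = 0.00326), and fell in wild type too (log2 -1.60). Tef, a clock output factor (log2 -1.20), and Bhlhe41 (log2 -0.85) fell as well. Tef and Nfil3 did not pass without 10-week replicate 1 (adjusted p = 0.0502 and 0.061), nor Bhlhe41 with the label pair exchanged (0.0659). The sources used here do not give the time of day of the lavages. Of 27 tested immediate early genes, which respond within minutes to stimuli and to handling, 5 rose (Jund, Socs3, Rhob, Nr4a1 and Junb, log2 0.64, 1.68, 0.61, 0.89 and 0.95) and Myc fell (log2 -0.57), with a list median of 0.64. None of them passed without either of the 4-week libraries. Jund, Nr4a1, Junb and Myc did not pass without 10-week replicate 1, and Nr4a1 did not pass with the label pair exchanged.

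Of 18 tested glycolysis genes 3 fell, beside 4.83% of all genes that fell: Hk3, a hexokinase (log2 -1.25, adjusted p = 0.00421), Fbp1 and Aldoa, aldolase (log2 -0.55), and of 33 oxidative phosphorylation genes Cox7a2 fell (log2 -0.46). Fbp1, Aldoa and Cox7a2 passed neither without 10-week replicate 1 nor with the exchange. Among 20 genes of growth arrest and cell death, Bax, an activator of mitochondrial cell death, fell (log2 -0.75, adjusted p = 0.00383). A pair of airway chloride channel regulators were lower at 10 weeks, Clca3 (0.195 and 0.361 CPM against 2.16 and 42.9 CPM, log2 -6.40) and Clca4, which had 0 counts at 10 weeks against 189 at 4 weeks and so was at least 61.5-fold lower against 3 counts over the group. Clca4 did not pass in any fit that left out 1 library (adjusted p from 0.0798 to 0.113), nor with the exchange (0.0666). Clca3 had an adjusted p of up to 0.239 when 1 library was left out, and did not pass without 10-week replicate 1 (0.108). For Clca3, as for Fbp1, 4-week replicate 2 stood far above 4-week replicate 1.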
